A study of Homo sapiens with 6 samples.

Results

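The kinetochore is the protein assembly that joins a chromosome's centromere to spindle microtubules, and the spindle checkpoint is the signal that unattached kinetochores send to delay anaphase. A total of 32 genes of both systems were followed at the RNA level in HCT116, a human colorectal carcinoma cell line. They were picked as a list of symbols by their known roles, with earlier results of these data known, among the 59251 rows of the deposited gene table, and all 32 were found and passed the filter on low counts. RNA was sequenced in 3 libraries from cells in which both copies of the eIF6 gene carry N106S (MUT) and in 3 from wild-type cells (WT). Mutant cells were clones made by CRISPR/Cas9 editing, and no cells of either group were given a drug or arrested in the cell cycle as far as the labels say. The labels do not tell clones or cultures apart, so the p-values rest on the spread among these libraries alone, which may be technical. The title names exit from mitosis as a question of the study, whose ribosome profiling is not analysed here.

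Anaphase begins when CDC20 switches on the anaphase-promoting complex. Unattached kinetochores recruit MAD1, MAD2, BUB1, BUBR1, BUB3 and the kinase MPS1 to build an inhibitor of CDC20, and TRIP13 with p31comet takes that inhibitor apart once microtubules are bound. The outer kinetochore, made of the KNL1, MIS12 and NDC80 complexes, holds the microtubule together with the SKA complex, and the constitutive centromere-associated network ties it to CENP-A chromatin. Many of these genes are transcribed mainly in G2 and mitosis, and in bulk RNA a smaller share of such cells cannot be told apart from less RNA per cell.

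Total counts ranged from 53986494 to 80146608 in MUT and from 63951768 to 87656970 in WT libraries, of which small structural RNAs (7SL, 7SK, RPPH1 and RMRP) took 62.7 to 80.9% in MUT and 74.3 to 84.0% in WT. MUT replicate 2 stood apart, with ribosomal RNA at 3.91% of counts against at most 0.139% in the other MUT libraries. WT replicate 1 had 1.16%, against at most 0.234% in the other WT libraries. In counts scaled to library size by the TMM method (CPM), the 8 epithelial markers summed to 457 to 506 in MUT and 426 to 462 in WT, nearly all from KRT8, KRT18 and KRT19. EPCAM was at 7.11 to 8.24 CPM in MUT and 9.12 to 9.83 in WT, CDH1 at 0.235 to 0.413 in MUT and 0.468 to 0.856 in WT, and CLDN3 at 1.39 to 1.98 in MUT and 2.38 to 2.998 in WT, while VIL1 was at most 0.0616 CPM. The tight junction gene CLDN4 fell to 7.68, 5.85 and 7.32 CPM in MUT, against 14.4, 10.7 and 14.8 CPM in WT (log2 fold change -0.94, SE 0.16, edgeR adjusted p = 0.0284). CDH1 (-1.23, SE 0.37), CLDN3 (-0.66, SE 0.18) and EPCAM (-0.34, SE 0.11) were also lower without overlap but did not pass in that test. KRT8 went the other way, higher in MUT without overlap (0.32, SE 0.14), and did not pass either. KRT18 (0.05, SE 0.17) and KRT19 (0.11, SE 0.15) overlapped between the groups. The 11 markers of blood, stroma, endothelium and liver summed to 0.704 to 1.05 CPM in MUT and 0.348 to 1.06 in WT, and PTPRC, CD3E and CDH5 had 0 counts in all 6 libraries. COL1A1 led them at 0.620 to 0.852 CPM in MUT and 0.275 to 0.671 in WT (0.70, SE 0.34), a level like that of CDH1, and PDGFRB was at -0.03 (SE 0.99). The part of these markers in the results was not tested.

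No kinetochore or checkpoint gene passed the test between MUT and WT. Of the 32 genes, 18 had log2 fold changes above 0 and 14 below, the median was 0.09 against -0.01 over all 14808 genes tested, and the extremes were 0.81 for ZW10 and -0.45 for MAD2L1. The test was edgeR's quasi-likelihood test with Benjamini-Hochberg adjustment over all tested genes at a threshold of 0.05, under which 1.91% of all tested genes were called. At an unadjusted p below 0.05 there were 7 members, 3 higher and 4 lower in MUT, where 19.6% of all tested genes reached that level. The MUT and WT values did not overlap for 8 members of the 32, where 26.1% of all tested genes did not overlap. Of these, 3 were higher in MUT (12.8% of all tested genes) and 5 lower (13.4% of all tested genes). On library size alone, which shifted the median of all genes to 0.54, the 5 lower genes (BUB3, CENPM, DSN1, KNTC1 and MAD2L1) had values of 0.12 to 0.34, above 0 and below that median.

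Other settings called at most 3 members. Without a low-count filter ZW10, PMF1 and SKA2 were called higher, where 4.07% of all genes were called. DESeq2's test called PMF1 and SKA2 higher, where 5.99% of genes were called, and a filter of 1 CPM in 3 libraries called PMF1 higher, where 4.66% were called. Without MUT replicate 2, PMF1 was called higher and MAD2L1 lower (2.9% of all genes), and without both libraries high in ribosomal RNA MAD2L1 alone was called (2.66% of all genes).

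**Figure D1:**
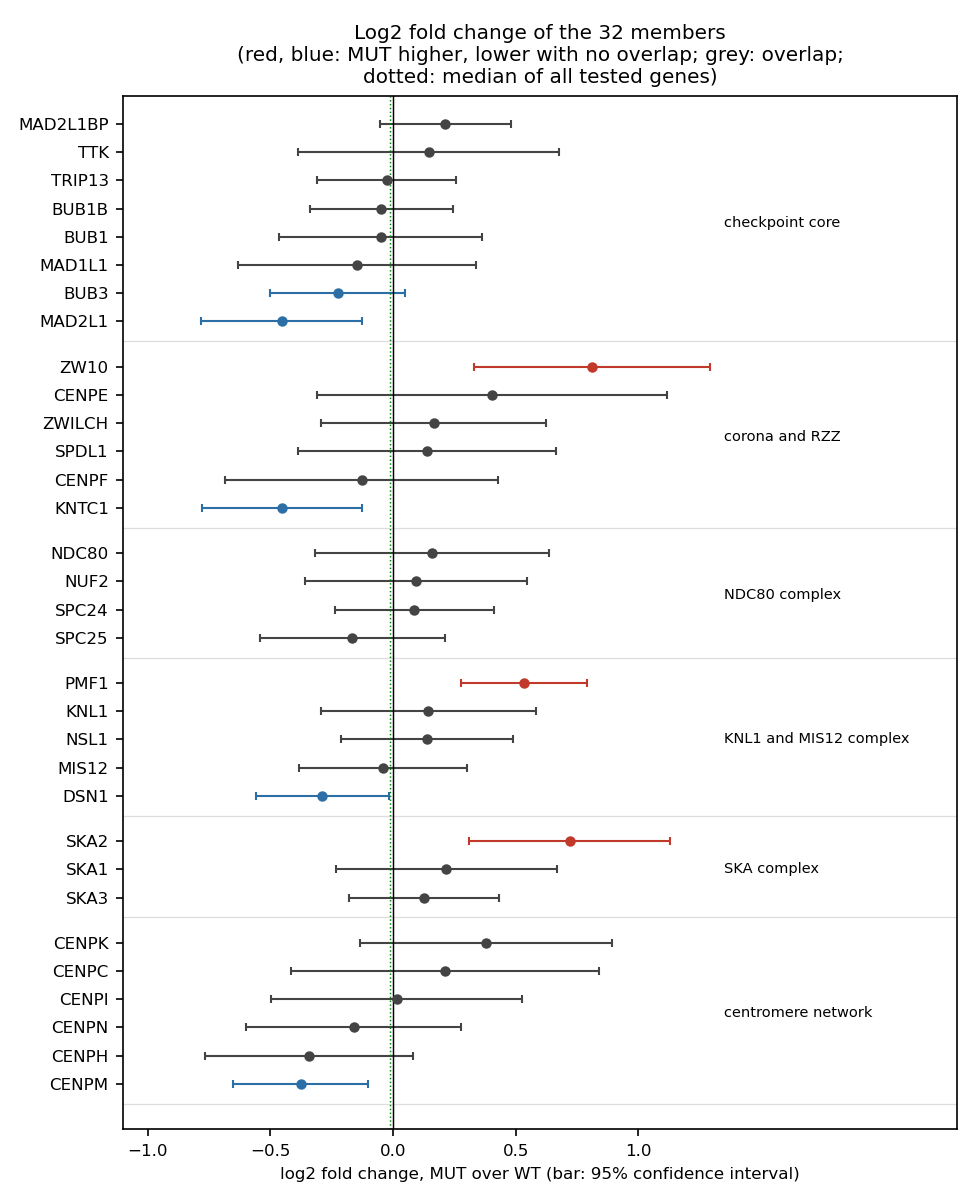
Log2 fold change of each of the 32 genes, MUT over WT, from edgeR (horizontal axis; bars are 95% confidence intervals), with genes listed by role down the page. The intervals of 7 genes exclude 0, and those of 29 lie within a 2-fold change in either direction.

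PMF1, ZW10 and SKA2 were the 3 members with every MUT value above every WT value. PMF1 (chromosome 1, 156213007 to 156240042, GRCh38) encodes a subunit of the MIS12 complex, the link between inner and outer kinetochore. It was measured at 12.3, 12.9 and 12.9 CPM in MUT replicates 1 to 3, against 7.92, 9.10 and 9.35 CPM in WT replicates 1 to 3. All MUT libraries lay close together and above the highest WT library. The log2 fold change was 0.53 (SE 0.11, 95% confidence interval 0.28 to 0.79), which missed the threshold narrowly in edgeR's test (adjusted p = 0.0528). With 1 library left out in turn it stayed between 0.48 and 0.59, with edgeR adjusted p between 0.0401 and 0.188. PMF1 shares 23.3% of its exon bases with the read-through gene PMF1-BGLAP, which had 3 to 87 counts per library against 404 to 1261 for PMF1. PMF1-BGLAP had a log2 fold change of 1.22, in the same direction, and its part in the PMF1 values was not tested.

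SKA2 (chromosome 17, 59109857 to 59155186) encodes a subunit of the SKA complex, which helps the kinetochore follow shortening microtubules. Its values were 8.22, 12.9 and 8.31 CPM in MUT against 6.31, 5.88 and 5.67 CPM in WT. MUT replicate 2 was well above the other MUT libraries, which still lay above all WT libraries. The log2 fold change of 0.72 (SE 0.18, interval 0.31 to 1.13) did not pass in edgeR's test (adjusted p = 0.0768), and without MUT replicate 2 it was 0.49.

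ZW10 (chromosome 11, 113733187 to 113773692) encodes a subunit of the RZZ complex, which brings dynein and the MAD1-MAD2 pair to unattached kinetochores. It had 113, 181 and 84 counts in the MUT libraries and 67, 55 and 45 in the WT libraries, or 1.59 ± 0.24 CPM in MUT and 0.92 ± 0.16 CPM in WT (SD, n = 3 each). The groups did not overlap, and the log2 fold change was 0.81 (SE 0.21, interval 0.33 to 1.29, edgeR adjusted p = 0.0882).

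**Figure D2:**
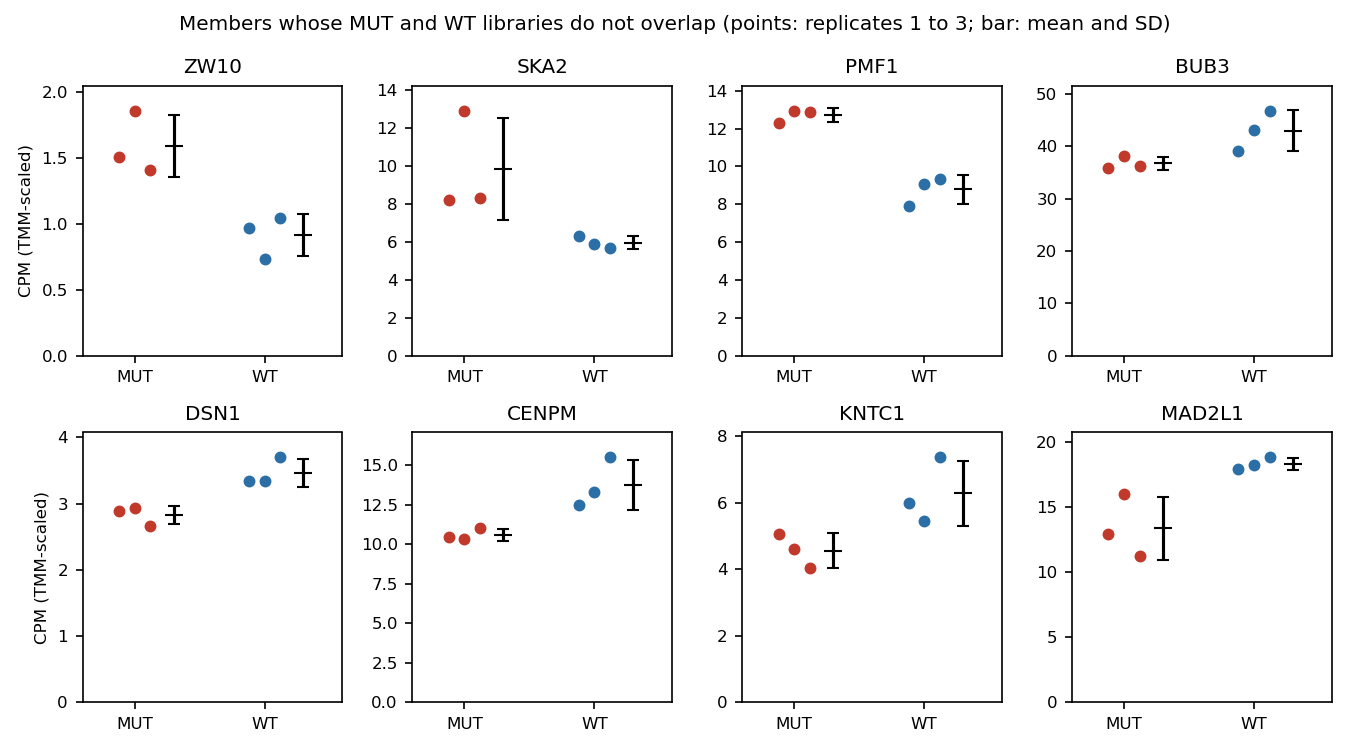
CPM in every library (vertical axes, starting at 0) of the 8 genes whose MUT and WT values do not overlap; points are replicates 1 to 3 and the bars give mean and SD. ZW10, SKA2 and PMF1 lie higher in MUT, and BUB3, DSN1, CENPM, KNTC1 and MAD2L1 lie lower on this scale, though not on library size alone.

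Genes expressed in G2 and mitosis often carry a CHR element, a short sequence at the start of transcription that binds the DREAM and MuvB-B-MYB complexes, together with CCAAT boxes bound by NF-Y. RefSeq windows of 300 bases (250 before to 50 after a gene's start, GRCh38.p14) were at hand for 26 of the 32 genes, all but BUB3, TTK, KNTC1, KNL1, CENPH and CENPM. A CHR sequence (TTTGAA or TTCGAA, either strand) was found in 15 of the 26 genes, or 57.7%, against 16.4% of all 35116 windows. CCAAT (either strand) was found in 14 of the 26, or 53.8%, against 34.6% of all windows. The units differ: a gene counted if any of its windows held a match (29 windows for the 26 genes), and the other share is per window. The 15 genes with a CHR sequence showed a log2 fold change of 0.09 in the median, and the 11 without it 0.14. The 250 bases before the start are printed for the 3 genes that were higher in all MUT libraries, for DSN1, which was lower in all of them, and for the checkpoint gene BUB1B, as an example of a CHR sequence close to the start. Capitals mark CHR sequences and CCAAT on either strand. The stretches lie at chr1:156212757-156213006 (plus strand) for PMF1, chr17:59155187-59155436 (minus strand) for SKA2, chr11:113773693-113773942 (minus strand) for ZW10, chr20:36773764-36774013 (minus strand) for DSN1 and chr15:40160819-40161068 (plus strand) for BUB1B.
PMF1: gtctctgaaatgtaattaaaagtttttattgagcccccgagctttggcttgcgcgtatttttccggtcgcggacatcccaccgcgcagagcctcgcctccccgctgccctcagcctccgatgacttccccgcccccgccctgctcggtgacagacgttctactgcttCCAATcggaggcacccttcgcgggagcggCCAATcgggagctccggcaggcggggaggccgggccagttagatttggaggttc
SKA2: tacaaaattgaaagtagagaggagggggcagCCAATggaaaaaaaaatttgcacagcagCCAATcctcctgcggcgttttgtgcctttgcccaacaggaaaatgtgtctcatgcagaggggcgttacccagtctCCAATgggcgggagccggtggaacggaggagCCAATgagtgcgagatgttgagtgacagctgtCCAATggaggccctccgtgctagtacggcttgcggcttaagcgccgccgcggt
ZW10: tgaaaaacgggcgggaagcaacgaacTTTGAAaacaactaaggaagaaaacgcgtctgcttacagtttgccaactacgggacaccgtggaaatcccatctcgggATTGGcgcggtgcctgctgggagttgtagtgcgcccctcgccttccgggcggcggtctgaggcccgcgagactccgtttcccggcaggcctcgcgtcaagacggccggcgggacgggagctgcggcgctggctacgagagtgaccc
DSN1: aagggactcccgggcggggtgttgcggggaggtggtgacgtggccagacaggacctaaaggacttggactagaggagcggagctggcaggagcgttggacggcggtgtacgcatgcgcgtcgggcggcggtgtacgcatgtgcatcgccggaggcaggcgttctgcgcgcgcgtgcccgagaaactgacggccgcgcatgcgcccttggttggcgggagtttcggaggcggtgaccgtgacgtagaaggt
BUB1B: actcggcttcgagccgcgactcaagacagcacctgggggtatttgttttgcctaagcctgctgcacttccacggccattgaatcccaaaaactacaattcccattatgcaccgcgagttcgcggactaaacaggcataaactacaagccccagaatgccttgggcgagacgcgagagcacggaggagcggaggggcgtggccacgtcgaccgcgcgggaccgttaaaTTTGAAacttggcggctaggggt
PMF1 and SKA2 held no CHR sequence in the window and several CCAAT boxes. Those of SKA2 began at positions -219, -191, -116, -85 and -53, where -1 is the base before the start, and those of PMF1 printed above at -83 and -54. ZW10 held TTTGAA at -224 and CCAAT on the other strand at -146, BUB1B held TTTGAA at -23, and DSN1 held neither motif. These are matches of letters in the reference sequence and no binding was measured.

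The checkpoint core comprised 8 genes, of which 2 had values above 0 and 6 below (median log2 fold change -0.05), with 0 called. MAD2L1 (chromosome 4, 120055623 to 120066848), which encodes the MAD2 protein that captures CDC20, was at 12.9, 16.0 and 11.2 CPM in MUT against 17.9, 18.2 and 18.8 CPM in WT. The WT libraries were nearly level, and every MUT library lay below them. The log2 fold change was -0.45 (SE 0.14, interval -0.78 to -0.13, edgeR adjusted p = 0.134). Without MUT replicate 2, the highest MUT library, it was -0.58 and passed in the same test (adjusted p = 0.0302), and its adjusted p lay between 0.0302 and 0.915 across the settings tried. BUB3 (chromosome 10, 123154402 to 123170467), the adaptor that docks BUB1 and BUBR1 on KNL1, was at 35.9, 38.1 and 36.2 CPM in MUT and at 39.0, 43.1 and 46.8 CPM in WT. The groups did not overlap but came within 1 CPM of each other, and the log2 fold change of -0.23 (SE 0.12) did not pass in edgeR's test (adjusted p = 0.346).

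The other checkpoint genes overlapped between the groups. MAD2L1BP, which encodes p31comet, averaged 8.70 ± 0.35 CPM in MUT and 7.50 ± 0.83 CPM in WT (SD, n = 3 each), a log2 fold change of 0.21 (SE 0.12). Its partner TRIP13, the ATPase that remodels MAD2, was at 5.57 ± 0.74 CPM in MUT and 5.68 ± 0.29 CPM in WT, a log2 fold change of -0.03. The kinase genes BUB1 (-0.05) and TTK (0.14, encoding MPS1), BUB1B (-0.05, encoding BUBR1) and MAD1L1 (-0.15, the kinetochore anchor of MAD2) had 95% intervals that included 0 and stayed within a 2-fold change. TTK was at 94 to 287 counts in the WT libraries, and its WT replicate 3 was the lowest of all 6.

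Among the 6 genes of the RZZ complex and the fibrous corona, 4 had values above 0 (median log2 fold change 0.15) and 0 were called. KNTC1 (chromosome 12, 122527249 to 122626396) encodes ROD, the large scaffold to which ZW10 and ZWILCH bind. It was at 5.06, 4.61 and 4.04 CPM in MUT against 6.01, 5.46 and 7.38 CPM in WT, so that every MUT library lay below every WT library. The log2 fold change of -0.45 (SE 0.14, interval -0.78 to -0.13) did not pass in edgeR's test (adjusted p = 0.134). ZWILCH, the remaining RZZ subunit, overlapped (0.17, SE 0.20). It shares 3.26% of its exon bases with RPL4 on the other strand. RPL4 had 19649 to 48672 counts per library, against 175 to 429 for ZWILCH, and its part in the ZWILCH values was not tested. SPDL1, the dynein adaptor Spindly, was at 2.60, 4.30 and 2.20 CPM in MUT and at 2.72, 2.82 and 2.78 CPM in WT. Only MUT replicate 2 lay above the WT values there, and the log2 fold change was 0.14 with that library and -0.19 without it. The corona motor gene CENPE (0.40, SE 0.31) had the widest interval of all members, -0.31 to 1.12, at 26 to 127 counts per library, and CENPF was at -0.13 (SE 0.25).

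The 4 genes of the NDC80 complex, which binds the microtubule directly, had log2 fold changes from -0.17 (SPC25) to 0.16 (NDC80), and none was free of overlap. Their summed CPM was 9.44, 11.8 and 9.15 in MUT and 9.17, 10.2 and 10.5 in WT, so that MUT replicate 2 was the highest and MUT replicate 3 the lowest. NUF2 (0.09) and SPC24 (0.09) made up the rest.

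In the KNL1 and MIS12 complexes 3 of 5 genes had values above 0. Beside PMF1, DSN1 (chromosome 20, 36751795 to 36773763), which encodes the MIS12 subunit regulated by Aurora B, was free of overlap in the other direction. It was at 2.89, 2.93 and 2.66 CPM in MUT against 3.35, 3.34 and 3.70 CPM in WT. The groups were narrow and separate, and the log2 fold change of -0.29 (SE 0.12, interval -0.56 to -0.02) did not pass in edgeR's test (adjusted p = 0.228). NSL1 (0.14), MIS12 (-0.04) and the checkpoint scaffold gene KNL1 (0.14) overlapped. MIS12 shares 9.53% of its exon bases with DERL2 on the other strand, and the sources used here do not say whether counting used strand. In the SKA complex SKA1 (0.22, SE 0.20) and SKA3 (0.13, SE 0.13) overlapped, unlike SKA2.

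Of the 6 genes of the centromere-associated network, 3 had values above 0 and 0 were called. CENPM (chromosome 22, 41927196 to 41947152), a small subunit of the CENP-HIKM group, was at 10.5, 10.3 and 11.0 CPM in MUT against 12.5, 13.3 and 15.5 CPM in WT. The groups did not overlap, and the log2 fold change was -0.38 (SE 0.12, interval -0.65 to -0.10, edgeR adjusted p = 0.137). The 3 other subunits of that group gave -0.34 for CENPH, 0.01 for CENPI and 0.38 for CENPK, and their MUT and WT values overlapped. CENPC, which links CENP-A chromatin to the MIS12 complex, was at 0.21 (SE 0.28) with 36 to 127 counts. CENPN, which recognises CENP-A nucleosomes, was at 20.6, 29.1 and 17.9 CPM in MUT and at 23.7, 29.6 and 22.3 CPM in WT (log2 fold change -0.16, SE 0.19). CENPN lies on the long arm of chromosome 16, where the 37 tested genes within 5 Mb had a median of -0.18, and 12.8% of its exon bases overlap CMC2 on the other strand. For all members the median of tested genes within 5 Mb lay between -0.19 (NDC80) and 0.07 (MAD2L1BP).

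MUT replicate 2 held the highest value of 20 of the 32 genes and MUT replicate 3 the lowest of 11, as the plot of centred values shows. The median of the centred log2 CPM over the members was -0.14, 0.28 and -0.06 in MUT replicates 1 to 3 and -0.04, 0.05 and -0.03 in WT. The median coefficient of variation was 18.4% in MUT and 11.6% in WT. Without MUT replicate 2 the median log2 fold change of the members was -0.01, and without both libraries high in ribosomal RNA it was -0.10, with 10 of 32 genes above the median of all genes, against 18 with all libraries. The part of ribosomal RNA in these values was not tested.

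**Figure D3:**
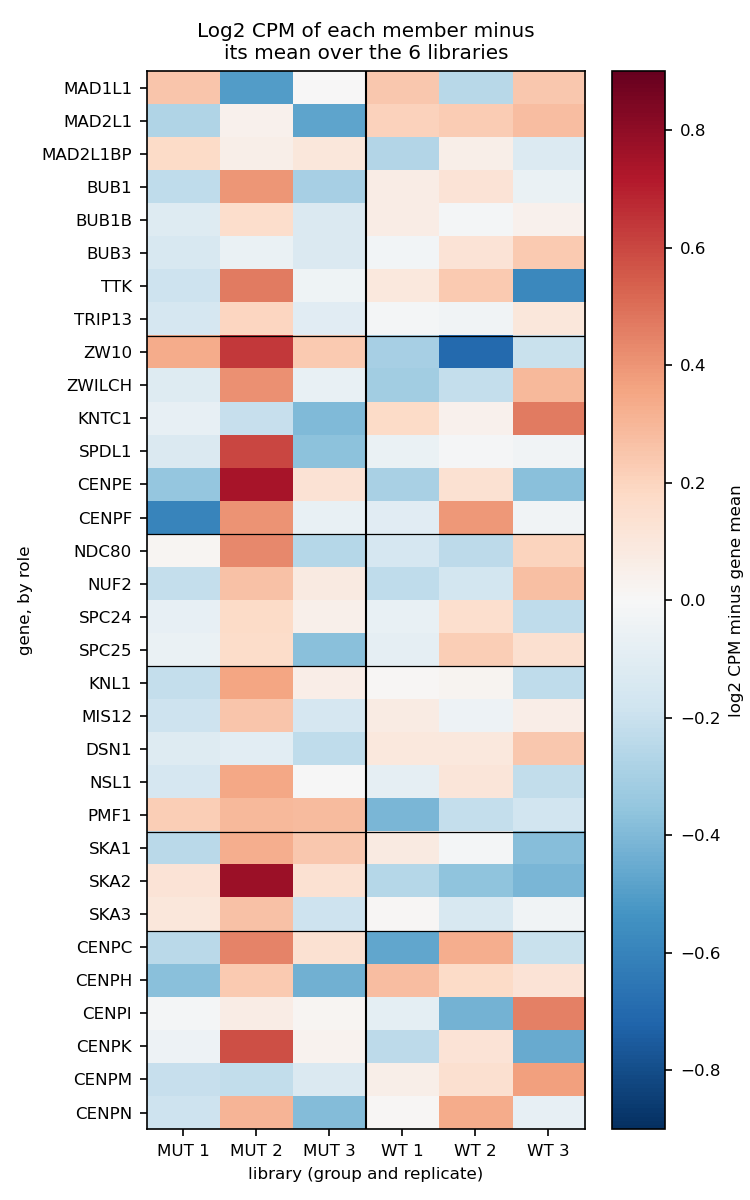
Log2 CPM of each gene minus its mean over the 6 libraries (colour; red above, blue below), for genes by role (rows) and libraries (columns, MUT left of WT). The column of MUT replicate 2 is red for most genes, and it holds the highest value of 20 of the 32.

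The summed level of the genes depended on the denominator. Summed CPM was 184, 224 and 180 in MUT and 194, 209 and 207 in WT, with overlap. As a share of counts other than the small structural RNAs, the members took 0.0901, 0.0991 and 0.0967% in MUT and 0.0810, 0.0878 and 0.0875% in WT, without overlap. On library size alone the median log2 fold change of the members was 0.67, against 0.54 for all tested genes.

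Ratios of counts between partners in 1 library do not depend on such scaling, and those given here were chosen after their values were seen, so they carry no test. The ratio of ZW10 to KNTC1, both in the RZZ complex, was 0.297, 0.403 and 0.349 in MUT against 0.161, 0.134 and 0.141 in WT. The ratio of PMF1 to DSN1, both in the MIS12 complex, was 4.26, 4.42 and 4.84 in MUT against 2.37, 2.72 and 2.53 in WT. The ratio of SKA2 to SKA3 was 0.972, 1.36 and 1.20 in MUT against 0.794, 0.824 and 0.736 in WT. The MUT and WT libraries were separate in all of these, MUT replicate 2 included. For ZW10 to KNTC1 and PMF1 to DSN1 this had to be so and adds nothing new. Both genes of each pair were already without overlap in CPM, in opposite directions. The ratio of MAD2L1 to MAD2L1BP, whose proteins bind each other, was 1.42, 1.91 and 1.29 in MUT against 2.67, 2.17 and 2.54 in WT, again without overlap. By contrast the ratio of MAD2L1 to MAD1L1 overlapped, at 3.49, 7.26 and 3.59 in MUT and 4.87, 6.95 and 5.11 in WT. Overlap was also seen for BUB3 to BUB1 (7.03 ± 1.52 in MUT and 7.65 ± 1.12 in WT). The same held for NDC80 to NUF2 (1.12 ± 0.22 in MUT and 1.07 ± 0.06 in WT). SKA2 to SKA1 (4.27 ± 0.82 in MUT and 3.05 ± 0.39 in WT) overlapped too. So did PMF1 to NSL1 (1.71 ± 0.26 in MUT and 1.29 ± 0.20 in WT; SD, n = 3 each throughout).

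**Figure D4:**
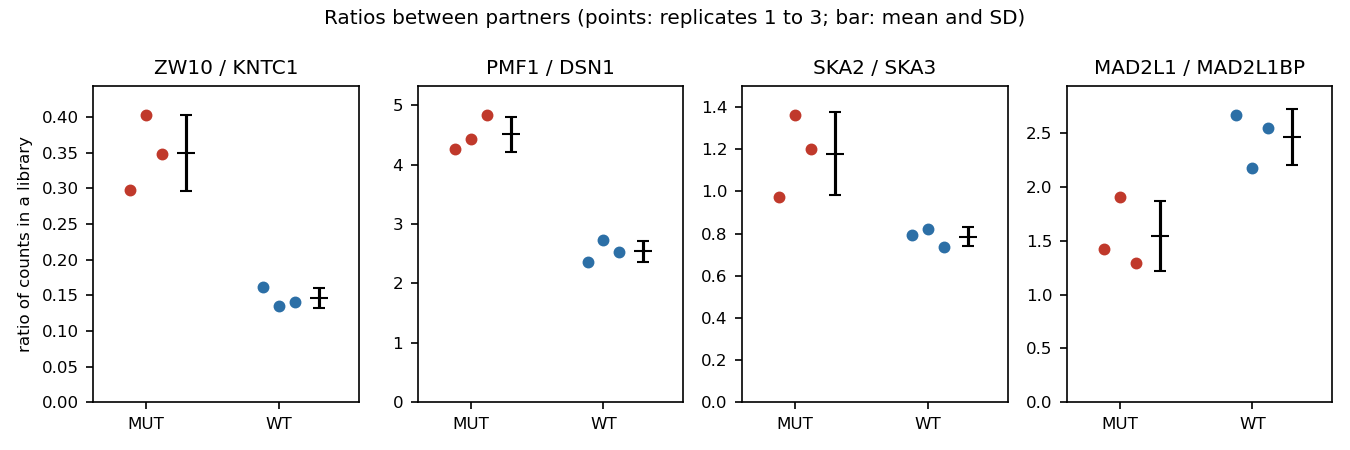
Ratio of the counts of 2 genes within each library (vertical axes, starting at 0) for 4 pairs of partners; points are replicates 1 to 3 and the bars give mean and SD. MUT values lie above WT for ZW10 to KNTC1, PMF1 to DSN1 and SKA2 to SKA3, and below for MAD2L1 to MAD2L1BP.

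Levels between genes were compared in TPM, which accounts for transcript length. CENPN (6.65 to 18.8 TPM in MUT, 5.23 to 11.96 in WT) and BUB3 (6.45 to 13.95 in MUT, 5.77 to 9.46 in WT) took the first and second place in every library, in either order. CENPM and PMF1 came next, again in either order, and MAD2L1BP was the fifth in all 6 libraries. The other 27 genes averaged under 1 TPM, and neighbours among them changed places between libraries. The lowest means were those of 3 genes. CENPC was at 0.04, 0.16 and 0.08 TPM in MUT and 0.03, 0.08 and 0.04 in WT, and KNL1 at 0.04, 0.12 and 0.06 TPM in MUT and 0.04, 0.06 and 0.03 in WT. CENPE, at 0.02, 0.09 and 0.03 TPM in MUT and 0.02, 0.03 and 0.01 in WT, was the last in every library. The MUT and WT values of all 3 overlapped. TPM is shared with the small structural RNAs, whose share was the lowest in MUT replicate 2, and that library had the highest TPM of every member.

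**Figure D5:**
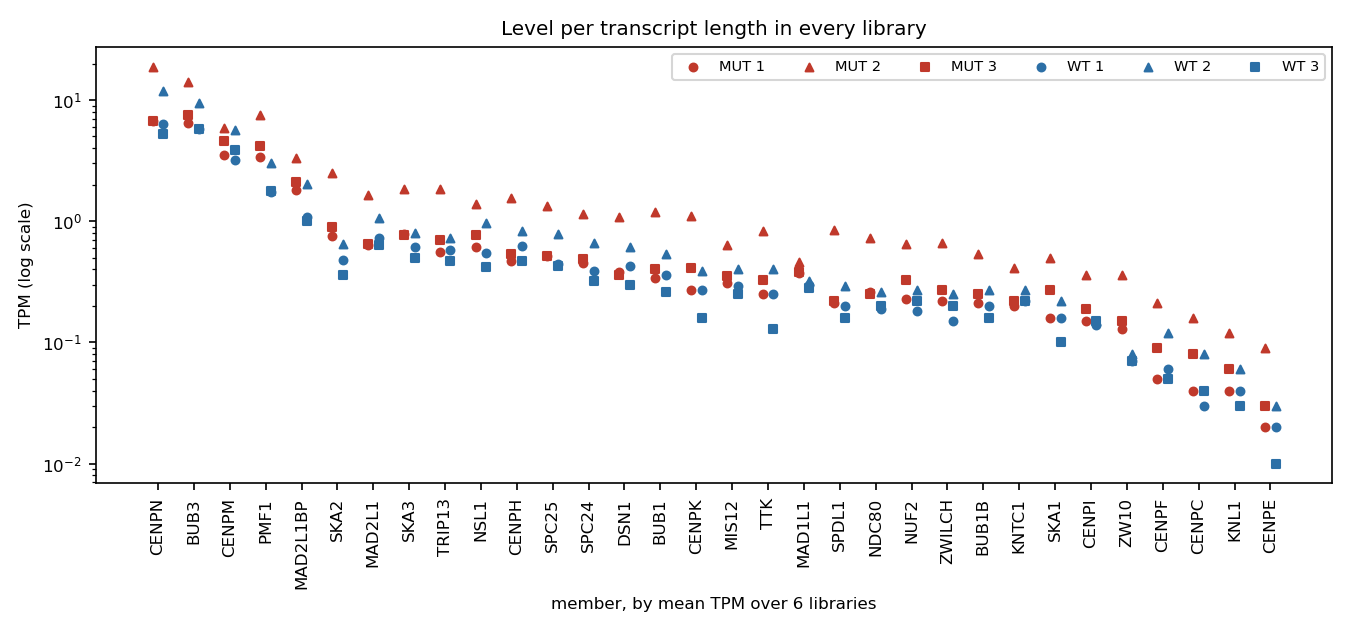
TPM of each gene in every library (vertical axis, log scale), ordered by the mean over the 6 libraries; colours are groups and symbols replicates. CENPN and BUB3 lead in every library, and the red triangles of MUT replicate 2 stand above the other points.

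Other genes of the same pathway were read from the same fit. Of 16 further genes of the centromere network and of CENP-A deposition 5 had values above 0 and 11 below (median -0.09), and 0 were called in edgeR's test. CENPW, the histone-fold partner of CENPT, was at 12.6, 13.2 and 12.8 CPM in MUT against 15.2, 21.2 and 19.8 CPM in WT (log2 fold change -0.54, SE 0.14, edgeR adjusted p = 0.0885). CENPA itself, the centromeric histone, was at -0.32 (SE 0.12, edgeR adjusted p = 0.178). Of 20 genes of the chromosomal passenger complex, cohesion protection and kinetochore partners 7 had values above 0 (median -0.06), with 0 called. The nucleoporin NUP107, which also sits at kinetochores, was at -0.49 (SE 0.15), and PLK1, a kinase that stabilises attachments, was at 0.31 (SE 0.10), both without overlap and with edgeR adjusted p of 0.121 and 0.151. Of 17 genes that mark cell cycle position 7 had values above 0 (median -0.03), with 0 called. CCNA2, encoding cyclin A2 (-0.35, SE 0.12), and the replicative helicase subunit gene MCM5 (-0.35, SE 0.12) had the smallest p there (edgeR adjusted p of 0.151 and 0.161).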

How the data were processed

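RNA was measured in 3 MUT and 3 WT libraries, grouped by their titles and genotype fields. The expected counts, FPKM and TPM analysed here are gene tables deposited by the authors. Whole numbers filled the table of expected counts that the authors deposited, the FPKM values deposited by the authors are scaled for depth and length, and the TPM values deposited by the authors are scaled for length to a fixed total. The build GRCh38 and the tools RSEM 1.2.28, STAR 2.5.2b, DESeq2 1.42.0 and FastQC 0.12.1 are named, per the submitters' processing notes, without their roles; strand handling is not given in the sources used here.

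Counts of all genes passing filterByExpr (minimum count 10, minimum total 15) were scaled by TMM and tested with edgeR 4.0.16 (glmQLFit and glmQLFTest, R 4.3.3), MUT over WT, with Benjamini-Hochberg adjustment over all tested genes at 0.05. The scripts were tested on simulated data. Alternatives used DESeq2 1.42.0, limma 3.58.1 on log2 values of FPKM (pseudocount 1) and of TPM (pseudocounts 1 and 0.1), other scalings and filters, a replicate block and left-out libraries. No replicate pair was identical. Low counts limit precision, and intervals of fold changes cover the spread between libraries.

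The members and lists were chosen with earlier results of these data known, so no test over the members was made. Named with all library values were members called in any fit, members without overlap between groups and the 4 with the smallest p, and by level the 3 highest and 3 lowest in TPM. From each other list the called genes were named, or else the 2 with the smallest p. Others were added by role. Promoter windows came from RefSeq, positions and exon overlaps from the reference annotation. Proteins were not used here.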

Additional observations from a re-analysis of the deposited data

How the results depend on the processing

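Of 18 alternatives, 13 called no member. No low-count filter called 3, a filter of 1 CPM in 3 libraries 1, DESeq2's test 2, and leaving out WT replicate 1 with MUT replicate 2 called 1. Leaving out 1 library in turn called 0 to 2 members, gave member medians of -0.01 to 0.13 on the log2 scale, and called 27 to 442 of all genes, the most without MUT replicate 2, against 283 with all libraries. The member median was 0.67 on library size alone, 0.33 on log2(TPM + 1), 0.36 on log2(TPM + 0.1) and 0.29 on log2(FPKM + 1), where the medians of all genes were 0.54, 0.36, 0.49 and 0.33. On log2(TPM + 1) with no filter, which kept all 32 members, the member median was 0.19 against 0.03 for all genes. All 32 members lay above the median of all genes there, in a fit of 24385 genes against 2853 with the TPM filter. On the filtered scales fewer members lay above the median of all genes. They were 2 of 5 with either TPM pseudocount and 7 of 19 on log2(FPKM + 1). Without both libraries high in ribosomal RNA the member median was -0.10. The TPM filters left 5 members and the FPKM filter 19. All genes called numbered 108 on library size alone, 1195 without a low-count filter, 462 with 1 CPM in 3 libraries and 764 with DESeq2. They numbered 21 on log2(TPM + 1), 10 on log2(TPM + 0.1), 1 on log2(TPM + 1) with no filter and 13 on log2(FPKM + 1).

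For the 8 genes without overlap, signs turned only on scales that moved the median of all genes above 0. Other members turned with the libraries used: without MUT replicate 2 SPDL1 was at -0.19, TTK at -0.07 and MAD1L1 at 0.07, against 0.14, 0.14 and -0.15 with all libraries. On library size alone BUB3 was at 0.34, CENPM at 0.18, DSN1 at 0.27, KNTC1 at 0.12 and MAD2L1 at 0.14. On log2(TPM + 1) BUB3 was at 0.33 and CENPM at 0.13, and on log2(TPM + 0.1) at 0.36 and 0.16. With no filter on log2(TPM + 1), BUB3 was at 0.33, CENPM at 0.13, DSN1 at 0.13, KNTC1 at 0.042 and MAD2L1 at 0.10. The median of all 24385 genes was 0.03 there, against 0.36 for the 2853 genes that passed the filter. BUB3 and CENPM, which passed it, lay below 0.36. On log2(FPKM + 1) BUB3 was at 0.26, CENPM at 0.058, DSN1 at 0.15 and MAD2L1 at 0.053. The cause was not tested.

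Replicate numbers did not pair the libraries: same-numbered MUT and WT libraries correlated at -0.29, -0.04 and 0.22 in their deviations from the group means, and not every library correlated best with its own number. With the replicate block 296 genes and 0 members were called, and the member median was 0.09.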
